A study of Mus musculus with 10 samples.

Results

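Aminoacyl-tRNA synthetases were followed as a family in 3T3-L1 preadipocytes, an established line of mouse fibroblasts, after knockdown of the histone demethylase LSD1. The family was defined by gene symbol. It held 36 listed genes, 20 for enzymes of the cytosol and 16 for enzymes of mitochondria. Of these, 35 were matched to a probe set with 1 gene symbol among 18193 genes in all, 19 cytosolic and 16 mitochondrial, and all 35 passed the filter that left out the dimmest 25% of genes. Dars was not analysed here. Where a gene had several probe sets, it was represented by its brightest probe set, taken as the mean log2 intensity of the 10 arrays.

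Transcripts were measured on 10 Affymetrix arrays. Cells received 60 nM of either a scrambled siRNA (siC) or an siRNA directed against LSD1 (siLsd1), and the medium was not changed afterwards. RNA was taken at 24 h from cells of passage 19 (2 arrays for siC and 2 for siLsd1) and at 48 h from cells of passage 21 (3 and 3). Time and passage therefore cannot be told apart. The labels call the replicates biological and give no more on their origin, so a p-value here speaks only of the spread among these samples. In RNA from bulk cells, fewer cells of a type and less RNA per cell cannot be told apart.

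Each synthetase attaches an amino acid to its tRNA, and the charged tRNA carries it to the ribosome. Most amino acids are served by separate nuclear genes for the cytosol and for mitochondria, while Gars and Kars each supply both compartments, and mitochondria obtain glutaminyl-tRNA by amidation of a mischarged glutamate. When uncharged tRNA builds up, the kinase GCN2 (Eif2ak4) phosphorylates the initiation factor eIF2 alpha, translation of the transcription factor ATF4 rises, and ATF4 acts on genes of amino acid synthesis, amino acid uptake and cytosolic tRNA charging, often through composite C/EBP-ATF elements. Interferon gamma is a known inducer of Wars.

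Kdm1a, which encodes LSD1, gave intensities of 1559 and 1621 on the siC arrays of 24 h and 1001 and 971 on the siLsd1 arrays. The 48 h values were 1596, 1787 and 1775 on siC arrays and 1352, 1336 and 897 on siLsd1 arrays. The groups did not overlap at either time, and Kdm1a fell by 0.69 and 0.55 on the log2 scale (limma adjusted p 0.0473 and 0.0338). The third siLsd1 array at 48 h stood apart from its group, and without it the 48 h change of Kdm1a was −0.35 (adjusted p 0.00277). Among 6943 genes whose mean log2 intensity reached 8, arrays of the same group differed with an SD of 0.0892 to 0.205 (log2), but 0.441 and 0.439 between that array and the other siLsd1 arrays at 48 h. Over the synthetases these last SDs were 0.347 and 0.329. Results are therefore given with and without that array. Median intensities per array were 35.6 to 40.6, and precision is limited by how few arrays there are. Of 8 preadipocyte and fibroblast markers, 6 were tested, Col1a1, Col1a2, Dlk1, Pdgfra, Pdgfrb and Thy1, Cd34 was left out as dim and Ly6a was not analysed here.

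Many cytosolic synthetases rose with siLsd1 at 48 h, and most mitochondrial ones did not pass the test. At an adjusted p under 0.05 over all genes tested, 10 of the 19 cytosolic genes rose and 0 fell at 48 h, when 12.7% of all 13644 genes were called, 6.00% higher and 6.67% lower. The median log2 change was 0.45 for the cytosolic genes (0.27 without the third siLsd1 array at 48 h) and −0.02 for all genes. Of the 16 mitochondrial genes 1 rose and 1 fell, with a median of −0.05. At 24 h, 0 of 19 cytosolic and 0 of 16 mitochondrial genes passed limma's test, when 5.39% of all genes did, 2.60% higher and 2.79% lower. At an unadjusted p under 0.05 there were 7 of the 35 synthetases and 3069 of all 13644 genes. Without the third siLsd1 array at 48 h, the fit called 13 cytosolic genes at 48 h, all higher (18.1% of all genes, 8.16% higher and 9.96% lower), and 8 at 24 h, 7 higher and 1 lower (25.5% of all genes, 10.1% higher and 15.3% lower).

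Each synthetase was centred on its mean log2 intensity over the 10 arrays, and the centred values were averaged over each class on every array. For the cytosolic class these means were 0.21 and 0.18 with siC at 24 h and 0.34 and 0.33 with siLsd1. The 48 h means were −0.42, −0.38 and −0.38 on siC arrays, and −0.12, −0.098 and 0.34 on siLsd1 arrays. The siC arrays at 48 h were thus the lowest of the 10, the first 2 siLsd1 arrays at 48 h lay between them and the siC arrays at 24 h, and the third lay level with the siLsd1 arrays at 24 h. The mitochondrial means stayed between −0.098 and 0.062 on all 10 arrays. Single mitochondrial genes ranged more widely, from −1.31 to 1.13 (both Mars2), so a level mean does not show that the members were constant. The mitochondrial genes were also dimmer, with mean intensities of 27.9 (Mars2) to 590 (Iars2), beside 353 (Vars) to 3834 (Gars) for the cytosolic genes. The cytosolic minus mitochondrial difference was 0.40 higher with siLsd1 than with siC at 48 h and 0.14 higher at 24 h. The 48 h value was 0.27 without the third siLsd1 array and 0.47 without the first. The SD of single arrays between replicates, pooled over all groups, was 0.13. It was raised by the third siLsd1 array at 48 h, with a difference of 0.28 beside −0.12 and −0.065 on the others. The 24 h arrays lay closer together, at 0.19 and 0.17 with siC and 0.34 and 0.30 with siLsd1. With so few arrays, the spread at 24 h is itself poorly known.

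**Figure D1:**
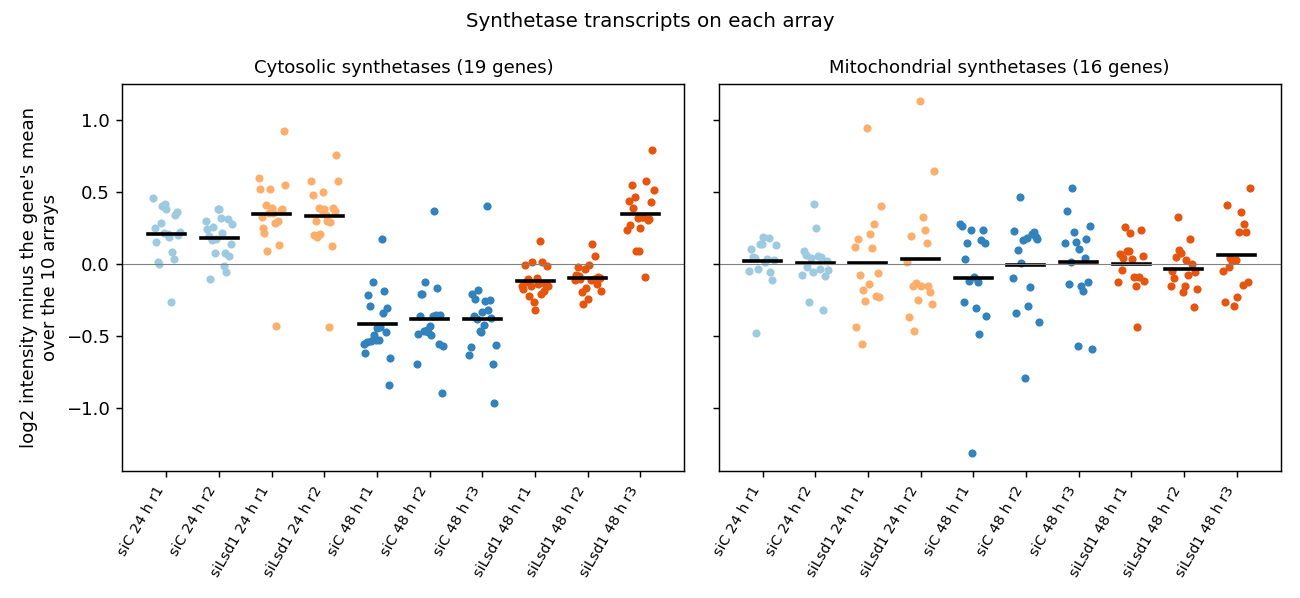
Centred log2 intensity and class mean of the 19 cytosolic and the 16 mitochondrial synthetases (black lines) on each of the 10 arrays, with 1 point per gene; the vertical axis is log2 intensity minus the gene's mean over the arrays, and colours mark siRNA and time. The cytosolic means run from −0.42 on a siC array at 48 h to 0.34 on siLsd1 arrays, while the mitochondrial means lie between −0.098 and 0.062.

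Because the cytosolic genes moved together, their start sites were searched for 6 short motifs on both strands, in RefSeq promoters of GRCm38.p6 that run from 250 bases before to 50 bases after each gene's start. Of the 35 measured synthetases 26 had an entry, 12 cytosolic and 14 mitochondrial. Those without were Cars, Hars, Lars, Nars, Rars, Vars, Wars, Hars2 and Pars2. The C/EBP-ATF element TGATGNAA was found at 5 of the 12 cytosolic genes (41.7%) and at 0 of the 14 mitochondrial genes, which have 15 promoters. Counted per promoter, it was in 3.97% of all 32851 in the table, which belong to 27025 genes. The 5 genes were Aars, Gars, Iars, Tars and Yars, of which Gars was not called at 48 h. Eprs, Kars, Mars1 and Sars, which were called, had an entry without the element. Windows of 30 bases are shown for Gars, Iars, Tars and Yars because they hold the letters that these 4 share. The element is in capitals, read along the gene's strand. None of the elements shown overlapped another of the 6 motifs.
Gars: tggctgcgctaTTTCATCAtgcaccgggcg
Iars: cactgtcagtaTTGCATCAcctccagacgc
Tars: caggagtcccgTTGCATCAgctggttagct
Yars: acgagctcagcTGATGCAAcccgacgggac
The windows lie at chr6:55037960-55037989 (Gars, plus strand), chr13:49682126-49682155 (Iars, plus strand), chr15:11399655-11399684 (Tars, minus strand) and chr4:129189895-129189924 (Yars, plus strand). Relative to the start, the elements span positions −30 to −23 in Gars, 8 to 15 in Iars, −15 to −8 in Tars and 4 to 11 in Yars. Of the 4, Yars carries the element along its own strand and the others carry it on the opposite strand.

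For comparison, 10 of 30 genes of the ATF4 pathway list with a promoter entry (33.3%) held the same element, and the windows of 3 of them are shown in the same way. Asns encodes asparagine synthetase, Trib3 a pseudokinase induced in amino acid stress and Chac1 an enzyme that degrades glutathione.
Asns: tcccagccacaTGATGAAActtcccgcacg
Trib3: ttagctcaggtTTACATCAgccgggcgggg
Chac1: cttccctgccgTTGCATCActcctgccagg
These lie at chr6:7693214-7693243 and chr2:152344028-152344057, both on the minus strand, and chr2:119351038-119351067 on the plus strand. The E-box CACGTG was found at 4 of 12 cytosolic genes (Aars, Farsb, Iars and Tars), at 1 of 14 mitochondrial ones (Ears2) and in 7.15% of all promoters. Of the other motifs, CCAAT was found at 7 and 6 genes (37.4% of all promoters), the NRF1 element (GCGCA, any base, GCGC) in 3 and 2 (4.6%), the STAT element TTCNNNGAA in 2 and 1 (8.3%) and the interferon element (GAAA, any 2 bases, GAAA) in 1 and 0 (3.44%). The 1 cytosolic promoter with the interferon element was that of Qars, and Wars had no entry. A match is a description of these letters and not evidence of binding.

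Wars, the tryptophanyl enzyme (Entrez gene 22375), had the largest 48 h fold among the called cytosolic genes. Its intensities at 48 h were 501, 482 and 459 with siC and 884, 836 and 1546 with siLsd1. The siLsd1 arrays all lay above the siC arrays, and the third lay far above the other siLsd1 arrays. The group means rose from 481 ± 20.9 to 1088 ± 397 (SD, n = 3), a 2.18-fold rise (log2 change 1.12, SE 0.19, limma adjusted p 0.00918). Its mitochondrial partner Wars2 gave 167, 170.4 and 181 with siC and 157, 145 and 138 with siLsd1. The Wars2 groups did not overlap either, with siLsd1 the lower (log2 change −0.24, SE 0.094, limma adjusted p 0.116), and the gene was not called. The change of Wars was 0.84 when the third siLsd1 array was left out (adjusted p 2.87e-05).

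Aars, which charges alanine, gave 1875, 1705 and 1782 with siC and 2482, 2552 and 3249 with siLsd1 at 48 h. The lowest siLsd1 array lay above the highest siC array. Its means were 1787 ± 85.4 and 2761 ± 424 (SD, n = 3), a 1.53-fold rise (log2 change 0.62, SE 0.10, limma adjusted p 0.00691). Iars, the isoleucyl enzyme and a member of the multi-synthetase complex, gave 1829, 1879.5 and 1872 with siC and 2600.2, 2514 and 3213 with siLsd1. Again no array of 1 group reached the other, and the rise was 1.48-fold (log2 change 0.57, SE 0.086, limma adjusted p 0.00549). Their mitochondrial partners did not pass the test. Aars2 gave 70.6, 54.5 and 64.6 with siC and 53.5, 52.4 and 56.5 with siLsd1, in overlapping groups (log2 change −0.22, 95% interval −0.52 to 0.092). Iars2 gave 542, 592 and 686 with siC and 627, 631 and 598 with siLsd1, also overlapping (log2 change 0.035, 95% interval −0.18 to 0.24).

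Cars and Yars rose by similar factors, 1.54- and 1.57-fold. Cars, the cysteinyl enzyme, gave 348, 381 and 358 with siC and 474, 506 and 720.1 with siLsd1 (log2 change 0.62, SE 0.14, limma adjusted p 0.0229). Yars, the tyrosyl enzyme, gave 482, 509.9 and 512 with siC and 683, 665 and 1079.6 with siLsd1 (log2 change 0.65, SE 0.16, limma adjusted p 0.0297). In both genes the groups were apart and the third siLsd1 array was the highest. With that array left out the log2 changes were 0.44 for Cars and 0.43 for Yars. Yars2, the mitochondrial tyrosyl enzyme, gave 246, 239.6 and 209.9 with siC and 292, 281 and 456 with siLsd1. It too lay higher on every siLsd1 array, without passing the test (log2 change 0.53, SE 0.17, limma adjusted p 0.07).

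Mars1, Tars and Eprs made up the rest of the 8 largest folds among the called cytosolic genes. Mars1, the methionyl enzyme that also charges the initiator tRNA, gave 527, 540.1 and 566 with siC and 708, 753 and 952 with siLsd1 (log2 change 0.55, SE 0.11, limma adjusted p 0.0147). Tars, the threonyl enzyme, gave 1488, 1405 and 1588 with siC and 1809, 1875 and 2554 with siLsd1 (log2 change 0.46, SE 0.12, limma adjusted p 0.0332). Eprs, whose single protein charges both glutamate and proline, gave 1992, 2255 and 2502 with siC and 2881, 2848 and 3493 with siLsd1 (log2 change 0.45, SE 0.10, limma adjusted p 0.0228). None of the 3 had overlapping groups. With the third siLsd1 array left out the log2 changes were 0.42 for Mars1, 0.30 for Tars and 0.35 for Eprs. Tars2 gave 382, 398 and 384 with siC and 319.7, 340.0 and 413 with siLsd1, with the siLsd1 arrays on both sides of the siC arrays (log2 change −0.13, 95% interval −0.38 to 0.12). The mitochondrial partners of Eprs are Ears2 and Pars2. Ears2 gave 116, 110.0 and 127 with siC and 135, 129.9 and 185 with siLsd1 (log2 change 0.34), and Pars2 gave 89.2, 90.2 and 99.4 with siC and 103, 112 and 129 with siLsd1 (log2 change 0.30). Both lay higher with siLsd1 on every array, and neither passed the test (limma adjusted p 0.127 and 0.106). Dimmer probe sets of Ears2 did not share its rise, with changes of −0.71, −0.20 and 0.014.

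Kars and Sars, the lysyl and seryl enzymes, were the other called cytosolic genes, with rises of 1.30- and 1.25-fold (limma adjusted p 0.0251 and 0.0304). Aars, Iars and Wars were called with each of the 10 arrays left out in turn. The calls of the other 7 depended on control arrays. Leaving out siC 48 h replicate 1 or replicate 2 left 3 cytosolic calls each, and leaving out replicate 3 left 5. Over all genes the 48 h calls went from 1728 to 489, 382 and 560 in these fits. Eprs and Mars1 lost their calls without siC 48 h replicate 1 or 2 (adjusted p 0.0572 to 0.0826), and Cars, Kars, Sars, Tars and Yars without any 1 of the 3 (0.0679 to 0.119). Sars also lost its call without siLsd1 24 h replicate 1 or 2 (0.0571), and Tars and Yars without any 1 of the 24 h arrays (0.0507 to 0.0611), where the log2 changes were the same and only the estimate of spread differed. Tested against a change of at least 1.2-fold, 0 of the 19 were called, and 109 genes of all, and with the 48 h arrays fitted alone 2 of the 19, Aars and Iars.

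**Figure D2:**
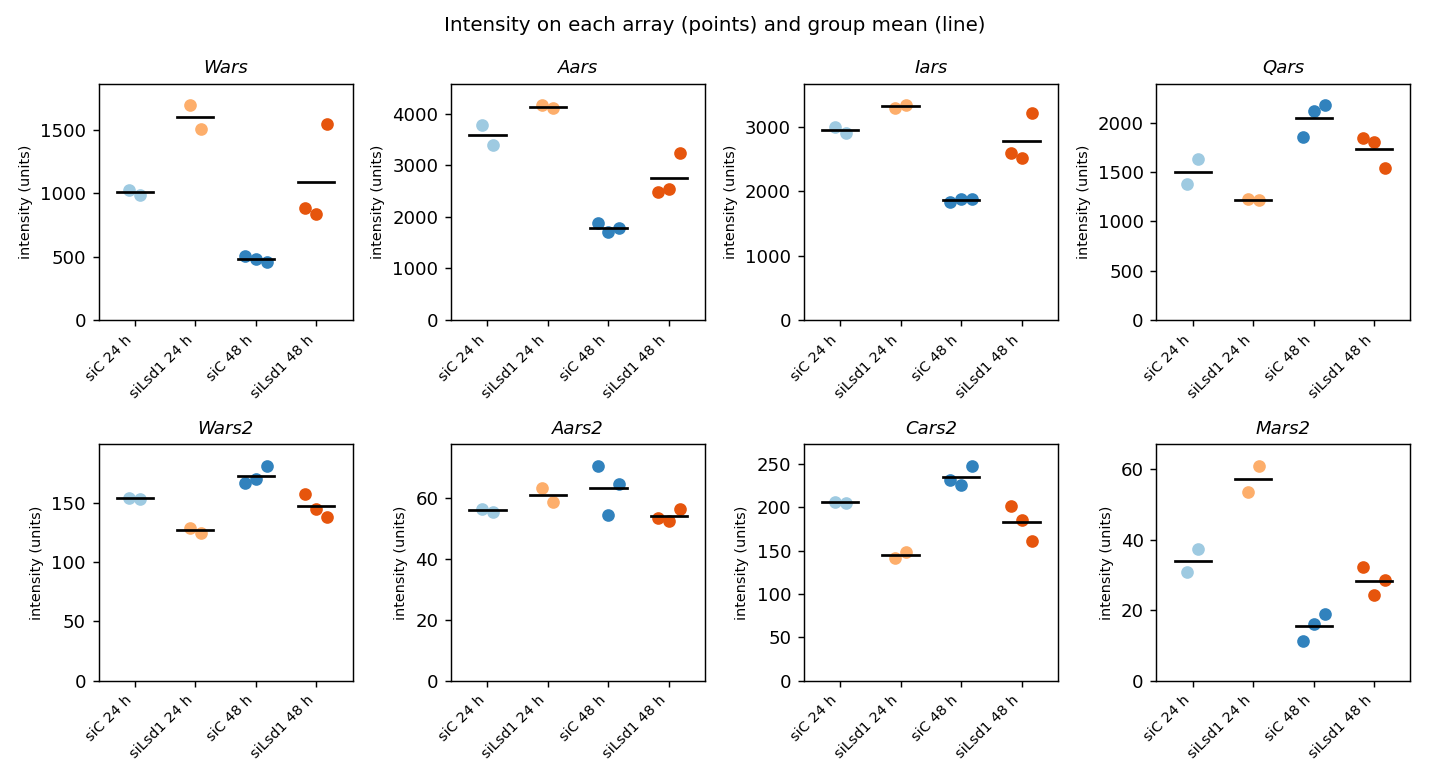
Intensity (linear scale, vertical axes from 0) of Wars, Aars, Iars and Qars and of the mitochondrial Wars2, Aars2, Cars2 and Mars2 on the 10 arrays, by group, with 1 point per array and a line at the group mean. Wars, Aars and Iars lie higher on every siLsd1 array than on any siC array of the same time, and Qars, Cars2 and Wars2 lie lower.

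Among the 9 cytosolic genes not called at 48 h, Nars and Gars had the smallest p. Nars, the asparaginyl enzyme, gave 2709.9, 2856 and 3073 with siC and 3334, 3409 and 4604 with siLsd1 (log2 change 0.38, SE 0.11, limma adjusted p 0.0501). Gars, the glycyl enzyme, gave 2650.4, 2780.1 and 2945 with siC and 3283, 3356 and 5286 with siLsd1 (log2 change 0.47, SE 0.15, limma adjusted p 0.0641). Both were higher on every siLsd1 array, and the third was the highest. Without it their changes were smaller, 0.23 and 0.25, and passed the test (adjusted p 0.0134 and 0.00583), as did Rars (0.18, adjusted p 0.0266). Vars, Rars, Lars, Farsa and Farsb lay between 0.30 and 0.52 with all arrays, also without overlap. With the third siLsd1 array left out they were lower, at 0.33 (Vars), 0.12 (Lars), 0.16 (Farsa) and 0.14 (Farsb). These genes and Rars charge valine, arginine, leucine and, as the alpha and beta chains of 1 enzyme, phenylalanine. A dimmer probe set of Farsa had the opposite sign (−0.44), as had one of Farsb (−0.18). Hars, the histidyl enzyme, was the only cytosolic gene with overlapping groups at 48 h (log2 change 0.029, 95% interval −0.22 to 0.27).

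Qars, the glutaminyl enzyme, ran the other way. Its intensities at 48 h were 1856, 2125 and 2183 with siC and 1844, 1811 and 1546 with siLsd1, and at 24 h 1376 and 1636 with siC and 1223 and 1216 with siLsd1. The siLsd1 arrays lay below the siC arrays at both times, at 48 h by a narrow gap. It was the only cytosolic gene lower without overlap at either time, and neither change passed the test (48 h: log2 change −0.25, SE 0.10, limma adjusted p 0.12). Without the third siLsd1 array at 48 h, the 24 h fall of 0.30 passed it (adjusted p 0.0338) and the 48 h value of −0.17 did not (adjusted p 0.209). Its other 3 probe sets also had negative changes at 24 h (−0.33, −0.28 and −0.054 on the log2 scale). Mitochondria have no partner of Qars and use the amidation route. Of its 3 enzyme subunits and the formyltransferase Mtfmt, 0 of 4 were called at either time. The nearest were Gatb at 24 h (−0.29, adjusted p 0.304) and Qrsl1 at 48 h (0.32, adjusted p 0.124).

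At 48 h, 17 of the 19 cytosolic genes lay higher on all siLsd1 arrays than on all siC arrays, 1 lay lower (Qars) and 1 overlapped (Hars), where 16.6% of all genes lay higher and 20.9% lower without overlap. Of the 16 mitochondrial genes 4 lay higher (Ears2, Mars2, Pars2 and Yars2), 3 lower (Cars2, Lars2 and Wars2) and 9 overlapped. The mitochondrial changes went from −0.37 to 0.91, and those 2 ends were the called ones.

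Mars2, the mitochondrial methionyl enzyme, gave 11.2, 16.1 and 18.8 with siC and 32.3, 24.4 and 28.5 with siLsd1 at 48 h, a 1.87-fold rise (log2 change 0.91, SE 0.24, limma adjusted p 0.037). The groups did not overlap, but the intensities were near the dim level of 18.4 below which genes were left out, and 2 of the 3 siC arrays lay under it. Its call was lost without any 1 array apart from siLsd1 48 h replicate 2 (adjusted p 0.0504 to 0.0936), and with no filter on dim genes (0.0515). Cars2, the mitochondrial cysteinyl enzyme, gave 231, 226 and 248 with siC and 202, 186 and 160.5 with siLsd1, a 1.29-fold fall (log2 change −0.37, SE 0.10, limma adjusted p 0.0461). Every siLsd1 array lay below every siC array, while its cytosolic partner Cars lay above. The call of Cars2 was lost without any 1 of 8 arrays (0.0688 to 0.130) and held without siLsd1 48 h replicate 1 or 3. With the mean of its 3 probe sets the change was −0.14 (adjusted p 0.517), and a dimmer probe set had the opposite sign (0.16).

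The other 14 mitochondrial genes were not called at 48 h. Wars2 and Lars2, the tryptophanyl and leucyl enzymes, had lower values (−0.24 and −0.22), as had Nars2 (−0.18), Hars2 (−0.17), Vars2 (−0.047), Sars2 (−0.057) and Fars2 (−0.026). Rars2 was 0.20, with 524, 553 and 748 on the siLsd1 arrays. Yars2 and Pars2 had the smallest p among those not called (0.0125 and 0.0258 before adjustment). When the third siLsd1 array was left out, 1 mitochondrial gene was called at 48 h, Cars2 (log2 change −0.28, adjusted p 0.0486), and Mars2 had an adjusted p of 0.052.

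The cytosolic gene was compared with the mitochondrial gene of the same amino acid in 17 pairs over 16 amino acids, in which Eprs and Fars2 each enter 2 pairs. At 48 h the cytosolic change was the higher in 16 of the 17, with the methionine pair the exception (0.55 and 0.91). The widest gaps were those of tryptophan (1.36), cysteine (0.99) and alanine (0.83) on the log2 scale. At 24 h the cytosolic change was the higher in 13 of 17, and from siC at 24 h to siC at 48 h in 2 of 17. The 48 h count was again 16 when the third siLsd1 array was left out. These are counts of fitted changes with no test, and the comparisons share control arrays.

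**Figure D3:**
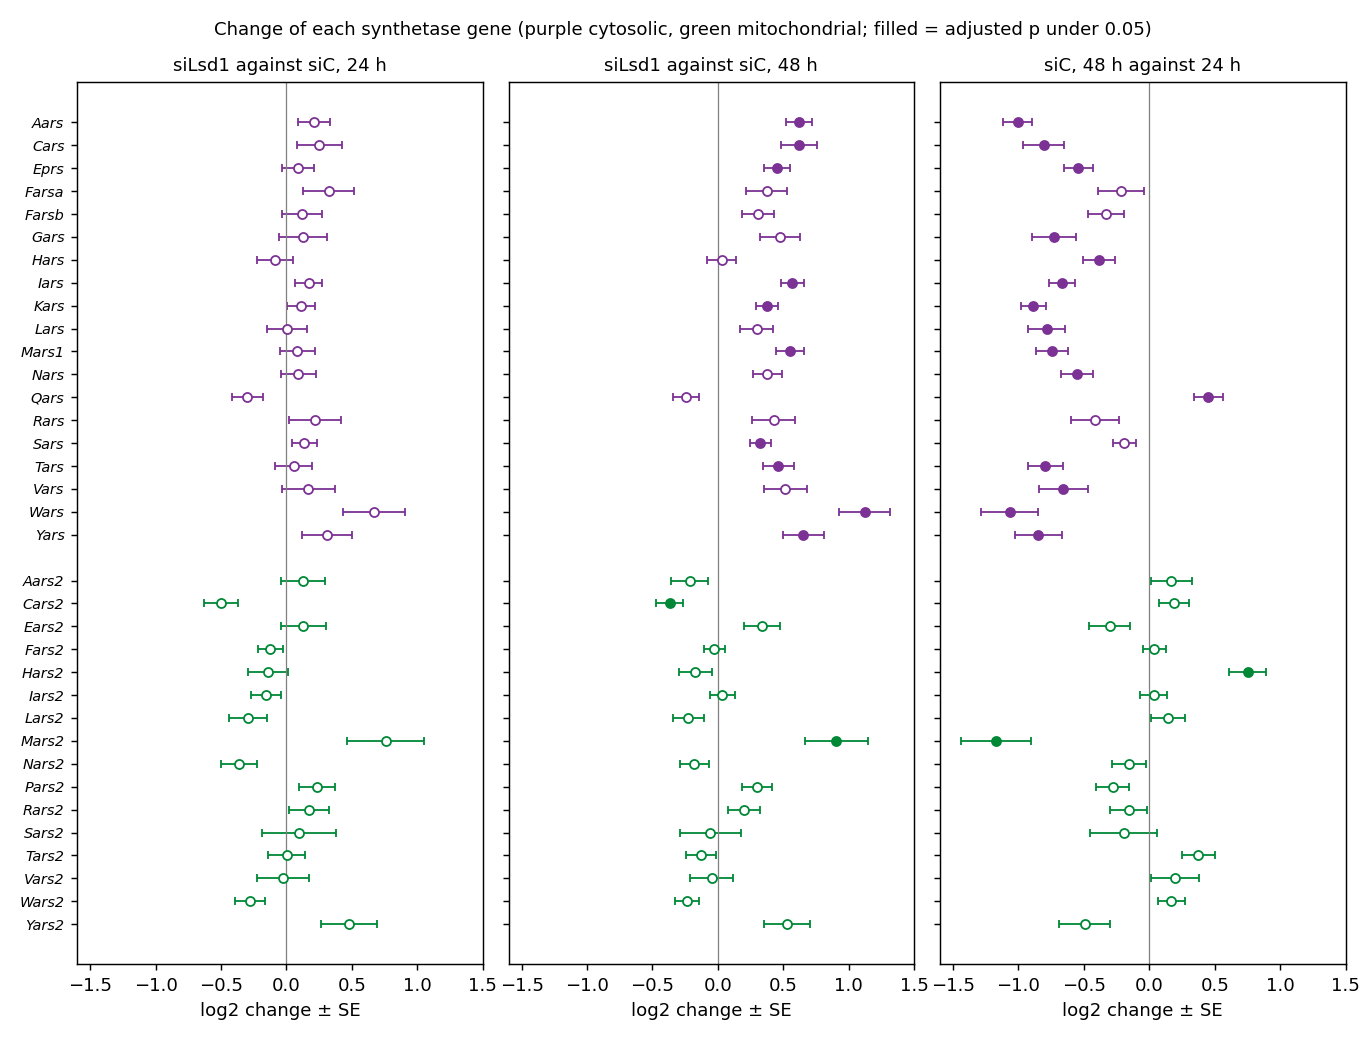
Log2 change of each synthetase (horizontal axis) with siLsd1 against siC at 24 h and at 48 h and from siC at 24 h to siC at 48 h, with bars of 1 standard error from limma, cytosolic genes in purple and mitochondrial genes in green, and filled points for called genes. At 48 h the 10 called cytosolic points run from 0.32 (Sars) to 1.12 (Wars), and from siC at 24 h to 48 h most cytosolic points lie below 0.

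At 24 h the same direction was seen in smaller values. Of the cytosolic genes 16 lay higher on both siLsd1 arrays than on both siC arrays, 1 lower (Qars) and 2 overlapped (Hars and Lars), where 27.5% of all genes lay higher and 33.9% lower without overlap. The median change was 0.13. Wars had the smallest p of the cytosolic class, with 1029.9 and 984 for siC and 1698 and 1511 for siLsd1. The groups were far apart, and the change did not pass the test (log2 change 0.67, SE 0.24, limma adjusted p 0.13). Aars gave 3785 and 3392 with siC and 4173 and 4114 with siLsd1 (log2 change 0.21, 95% interval −0.062 to 0.48). Iars gave 2996 and 2912 with siC and 3299 and 3341 with siLsd1 (log2 change 0.17, 95% interval −0.067 to 0.40). Without the third siLsd1 array at 48 h, which is in neither group but enters the estimate of spread, Aars, Cars, Farsa, Iars, Rars, Wars and Yars passed the test as higher, at the same log2 changes of 0.17 to 0.67 (adjusted p 0.000127 for Wars to 0.0351 for Aars).

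Of the 16 mitochondrial genes at 24 h, 6 lay higher without overlap (Aars2, Ears2, Mars2, Pars2, Rars2 and Yars2). Another 6 lay lower (Cars2, Fars2, Iars2, Lars2, Nars2 and Wars2) and 4 overlapped (Hars2, Sars2, Tars2 and Vars2). Among all genes 27.5% lay higher and 33.9% lower without overlap. Cars2 gave 206 and 205 with siC and 142 and 149 with siLsd1, the lower group well apart (log2 change −0.50, SE 0.13, limma adjusted p 0.0511). Nars2, the asparaginyl enzyme, gave 145 and 151 with siC and 115 and 114 with siLsd1 (log2 change −0.36, SE 0.14, limma adjusted p 0.157). Mars2 had the largest change of the class, with dim values of 30.7 and 37.2 for siC and 53.6 and 60.9 for siLsd1 (log2 change 0.76, SE 0.29, limma adjusted p 0.16). Yars2 gave 346 and 307 with siC and 418 and 494 with siLsd1, the siLsd1 arrays being higher (log2 change 0.48, SE 0.21, limma adjusted p 0.219). Without the third siLsd1 array at 48 h, Cars2 and Lars2 passed the test as lower and Yars2 as higher (adjusted p 0.00297, 0.0378 and 0.00942).

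The signed log2 change with siLsd1 was higher at 48 h than at 24 h for all 19 cytosolic genes in the fitted values, by a median of 0.34, and for 11 of 16 mitochondrial genes, with a median of 0.060 over the 16. A higher signed value includes smaller falls, such as those of Qars (−0.30 and −0.25) and Cars2 (−0.50 and −0.37). The difference itself was tested, and 0 genes of the family and 0% of all genes passed, with 4 of the 35 and 896 of all 13644 genes at an unadjusted p under 0.05. The smallest p belonged to Iars (difference 0.40, 95% interval 0.10 to 0.70, limma adjusted p 0.61) and Mars1 (0.47, 95% interval 0.089 to 0.85, limma adjusted p 0.656). Fitted without siLsd1 48 h replicate 3, 17 of 19 cytosolic differences were above 0 with a median of 0.14, and again 0 of the 35 passed, when 1.47% of all genes did, 1.08% higher and 0.396% lower at 48 h.

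The siC arrays themselves differed between the times, and the cytosolic synthetases were lower in the 48 h controls. Of the 19, 14 fell and 1 rose (Qars), where 24.2% of all genes were called, 12.0% higher and 12.2% lower. The median change was −0.67 for the cytosolic class, 0.036 for the mitochondrial class and 0.011 for all genes. Aars was at 3785 and 3392 at 24 h and 1875, 1705 and 1782 at 48 h, a 2.01-fold fall (SE 0.11 on the log2 scale, limma adjusted p 0.000255). Wars was at 1029.9 and 984 at 24 h and 501, 482 and 459 at 48 h, a 2.10-fold fall (log2 change −1.07, SE 0.22, limma adjusted p 0.00645). Kars was at 2573 and 2519.7 at 24 h and 1342, 1397 and 1397 at 48 h, a 1.85-fold fall (log2 change −0.89, SE 0.10, limma adjusted p 0.000219). In each of the 3 the 48 h controls lay below all other arrays of the series. Lars, which overlapped between siRNAs at 24 h, fell by 0.78 (adjusted p 0.00348).

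The other cytosolic falls from siC at 24 h to siC at 48 h were those of Cars, Eprs, Gars, Hars, Iars, Mars1, Nars, Tars, Vars and Yars, from −0.38 (Hars) to −0.85 (Yars). Farsa, Farsb, Rars and Sars had negative changes of −0.42 to −0.19 that did not pass. Dimmer probe sets of Farsa disagreed, at 1.32 (SE 0.22), 0.95 (SE 1.02) and −0.38 (SE 0.42). The siC arrays of the 2 times did not overlap for any of the 19, with 18 lower and 1 higher at 48 h, where 28.7% of all genes lay higher and 26.9% lower without overlap. Qars rose from 1376 and 1636 to 1856, 2125 and 2183 (log2 change 0.45, SE 0.11, limma adjusted p 0.0152). Among the mitochondrial genes Hars2, the histidyl enzyme, rose from 345 and 402 to 533, 666 and 696 (log2 change 0.75, SE 0.14, limma adjusted p 0.00396) and Mars2 fell from 30.7 and 37.2 to 11.2, 16.1 and 18.8 (log2 change −1.17, SE 0.27, limma adjusted p 0.0111). Their partners Hars and Mars1 both fell.

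Leaving out siC 24 h replicate 1 left 9 cytosolic calls in this comparison (1488 calls over all genes in place of 3302), and leaving out the third siLsd1 array gave 19, 18 lower and 1 higher, with 5 mitochondrial calls (40.4% of all genes, 21.1% higher and 19.3% lower). Hars lost its call in 7 of the 10 fits with 1 array left out and with quantile normalization (adjusted p 0.0905), and Qars without siC 24 h replicate 1 (0.153) or siC 48 h replicate 2 or 3 (0.0567 and 0.0523). Vars lost it without either siC 24 h array or siC 48 h replicate 2 or 3 (0.0549 to 0.210), and Gars and Nars without either siC 24 h array (0.0619 to 0.0803). Eprs and Yars lost it without siC 24 h replicate 2 (0.0594 and 0.0603), as did Mars2 (0.0928), and Wars and Hars2 without siC 24 h replicate 1 (0.0553 and 0.0506). Centring each array on its median moved the median change of all genes here from 0.011 to −0.13 and the split of all calls from 1640 higher and 1662 lower to 1053 and 2623, with 14 cytosolic genes lower and 1 higher as before. At 48 h the same centring gave 11 cytosolic rises, with 1043 genes of all higher and 756 lower in place of 818 and 910, and at 24 h 0, with 330 higher and 540 lower in place of 355 and 381. The comparison of controls and the 48 h comparison share the siC 48 h arrays, so a low siC value at 48 h enters both.

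Several cytosolic synthetases sit in a multi-synthetase complex. Of its 7 measured synthetases, Eprs, Iars, Kars and Mars1 rose at 48 h and Lars, Qars and Rars did not pass. The complex also holds 3 scaffold proteins. Aimp1 gave 2076, 2253 and 2347 with siC and 1946, 1833 and 1763 with siLsd1 at 48 h, without overlap, and fell (log2 change −0.27, SE 0.068, limma adjusted p 0.0337). Aimp2 and Eef1e1 had positive changes that did not pass (0.39 and 0.45, adjusted p 0.137 and 0.0782). Between the controls, Aimp2 and Eef1e1 fell at 48 h (−0.62 and −0.69, adjusted p 0.0355 and 0.0165).

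Synthetases belong to structural classes I and II, which differ in the fold of the catalytic domain. Leaving out Eprs, which holds 1 domain of each, 5 of 9 class I and 4 of 9 class II cytosolic genes rose at 48 h, with medians of 0.55 and 0.37. Of the mitochondrial genes, 9 are of class I (1 higher, 1 lower, median 0.035) and 7 of class II (0 called, median −0.13). The difference between the structural classes was not tested.

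Other genes of translation were read from lists. Of 4 cytosolic elongation factor genes measured, 0 were called at 24 h, at 48 h or between the controls, with 48 h changes nearest the threshold of −0.044 for Eef1a1 and −0.096 for Eef1d (adjusted p 0.415 and 0.423). Of 9 mitochondrial translation factors, 0 were called with siLsd1 at either time. Mtif2 had −0.19 and Tsfm 0.26 at 48 h (adjusted p 0.171 and 0.177). Of 76 mitochondrial ribosomal protein genes, 4 rose and 4 fell at 48 h (5.26% each way, beside 6.00% and 6.67% of all genes), with a median of 0.083. Mrpl22 and Mrpl3 rose (0.47 and 0.45) and Mrps21 and Mrpl34 fell (−0.49 and −0.41).

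Genes of the ATF4 pathway were higher and lower in the same comparisons as the cytosolic synthetases, which share the same arrays. The list, which holds no synthetase, had 32 tested genes, of which 19 rose and 0 fell at 48 h with a median of 0.64, beside 6.00% and 6.67% of all genes. At 24 h 1 rose and 1 fell, beside 2.60% and 2.79% of all genes. Without the third siLsd1 array at 48 h these counts were 14 and 2, beside 10.1% and 15.3% of all genes. Between the controls 0 rose and 24 fell, with a median of −0.95, beside 12.0% and 12.2% of all genes. Atf3, a transcription factor of the stress response, gave 33.0, 34.3 and 49.6 with siC and 219.7, 164 and 339 with siLsd1 at 48 h, and 214 and 232 with siC and 739 and 726 with siLsd1 at 24 h. The siLsd1 arrays were several times brighter at both times, a 6.02-fold rise at 48 h (log2 change 2.59, SE 0.24, limma adjusted p 0.000315), while at 24 h it was 3.29-fold (adjusted p 0.0112).

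Asns gave 2631, 2784 and 2846 with siC and 4121, 4188 and 6491 with siLsd1 at 48 h (log2 change 0.81, SE 0.14, limma adjusted p 0.0102). Trib3 gave 1723, 1708 and 1799 with siC and 2848, 2748 and 3673 with siLsd1 (log2 change 0.81, SE 0.10, limma adjusted p 0.00185). Ddit3, which encodes CHOP, gave 2908, 2584 and 2588 with siC and 3448, 3548 and 4493 with siLsd1 (log2 change 0.50, SE 0.10, limma adjusted p 0.0139). In these, as in Aars and Iars, the siLsd1 arrays lay above the siC arrays and the third was the highest. Chac1, Cth and Slc7a5, of which Cth makes cysteine and Slc7a5 takes up large neutral amino acids, rose 2.57-, 2.40- and 2.20-fold. The third siLsd1 array was the highest in each and raised these folds. The siLsd1 values at 48 h were 1555, 1530 and 3037 (Chac1), 302, 240 and 743 (Cth), and 1323, 1362 and 1845 (Slc7a5).

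Atf4 itself gave 3663, 3331 and 3170.0 with siC and 4015, 3992 and 6003 with siLsd1 at 48 h, higher on every siLsd1 array without passing the test (log2 change 0.44, SE 0.15, limma adjusted p 0.0726). With the third siLsd1 array left out, 21 of the 32 list genes rose at 48 h, with a median of 0.38, beside 8.16% of all genes. In that fit Atf4 was 0.24 (limma adjusted p 0.0584). Of the 4 eIF2 alpha kinases, Eif2ak3 (PERK) gave 630.0, 668 and 682 with siC and 415, 457 and 253 with siLsd1 at 48 h, without overlap. It fell 1.82-fold (log2 change −0.86, SE 0.18, limma adjusted p 0.02) and the other 3 were not called. Between the controls Eif2ak3 and Eif2ak4 rose (0.91 and 0.60, adjusted p 0.0109 and 0.0052). The part of the ATF4 pathway in the synthetase changes was not tested.

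Genes of the interferon gamma response were read beside Wars. Of 7 tested, 6 rose at 48 h with a median of 0.79, beside 6.00% of all genes. At 24 h 5 rose with a median of 0.71 (2.60% of all genes), and between the controls 6 fell (12.2% of all genes). Leaving out the third siLsd1 array, 6 rose at each time, where 10.1% of all genes rose at 24 h and 8.16% at 48 h. Cxcl10, a chemokine, gave 521, 694 and 774 with siC and 3299.6, 2862 and 3834 with siLsd1 at 48 h (log2 change 2.34, SE 0.14, limma adjusted p 5.33e-05). Psmb9, a subunit of the immunoproteasome, gave 794, 632 and 637 with siC and 1802, 1785 and 1824 with siLsd1 (log2 change 1.40, SE 0.10, limma adjusted p 5.83e-05). The place of the third siLsd1 array at 48 h differed within this list. On Psmb9 it lay level with the others, and on Cxcl9 (116, 93.9 and 237) it was far above them, as on Wars. On Gbp2 it was the lowest (2568, 2536 and 1861). Cxcl9 and Tap1 rose 6.26- and 1.73-fold. The part of interferon signalling in the rise of Wars was not tested.

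Markers of other cells were looked at beside these results. Of the 5 macrophage and leukocyte markers 4 were tested, all 4 had positive 48 h changes and 0 passed. The summed intensity of all 5 was 254.9 to 290.2 with siC and 294 to 349 with siLsd1 at 48 h. At 24 h the ranges overlapped, at 250.8 to 266.1 with siC and 243.8 to 333.8 with siLsd1. Ptprc, which marks leukocytes, was left out as dim, as were Pecam1 and Cdh5 of the endothelial and Epcam and Cdh1 of the epithelial list. Kdr and Krt8 of those lists passed the filter. At 48 h Kdr gave 44.3, 37.1 and 32.1 with siC and 35.6, 45.8 and 53.5 with siLsd1. Krt8 gave 12.2, 22.3 and 30.1 with siC and 22.4, 28.1 and 29.4 with siLsd1. The 4 mature adipocyte markers measured, nearly all of it Lpl, summed to 8950 to 9308 with siC and 8699 to 10180 with siLsd1 at 48 h. No marker was at exactly 0. Of the preadipocyte and fibroblast markers, Thy1 fell at both times (−0.83 and −0.83, limma adjusted p 0.0112 and 0.00412), all 6 tested had negative 48 h changes with a median of −0.49 (−0.18 without the third siLsd1 array), and the summed intensity of the 7 measured was 33738 to 35511 with siC and 23137 to 31497 with siLsd1 at 48 h. The lowest of these was the third siLsd1 array. The part of these shifts in the synthetase changes was not tested.

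**Figure D4:**
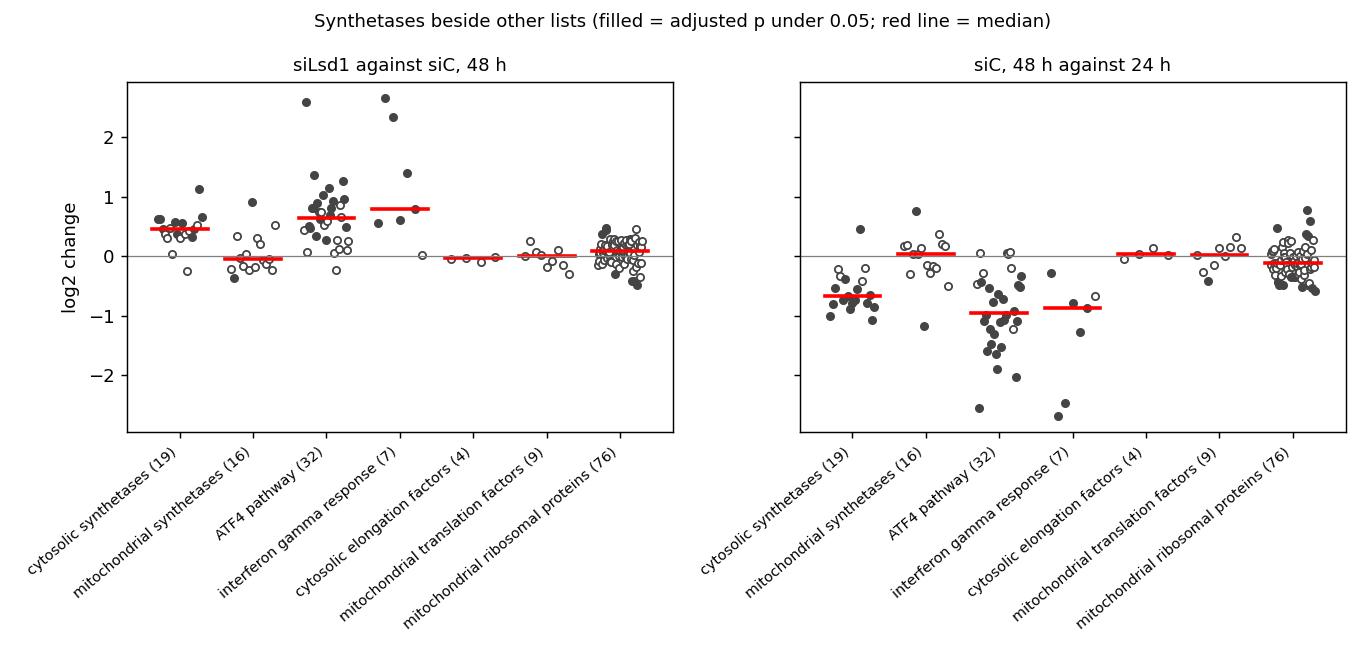
Log2 change (vertical axis) with siLsd1 against siC at 48 h, and from siC at 24 h to siC at 48 h, for the genes of 7 lists, with 1 point per gene, filled where called, and a red line at the list's median. At 48 h the medians of the cytosolic synthetases (0.45), the ATF4 pathway (0.64) and the interferon gamma response (0.79) lie above 0, and those of the mitochondrial synthetases (−0.05) and elongation factors (−0.04) lie near it.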

How the data were processed

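Per the labels, RNA from 10 samples of 3T3-L1 cells was hybridised to 1-colour Affymetrix arrays. The deposited values are intensity on a linear scale per probe set. The method by which the authors summarised and normalized them was not given in the sources used here. Values were used as deposited, as log2 intensity, with 1 probe set per gene (the highest mean log2) and without the dimmest 25% of genes (4549 of 18193). All 10 arrays were fitted in limma 3.58.1 (lmFit, and eBayes with an intensity trend) with 1 coefficient per group. Calls are Benjamini-Hochberg adjusted p under 0.05 over 13644 genes. The 10 arrays limit the precision. Members and lists were chosen with earlier results of these data known. Every member is named. Values per array are given for members called between siRNAs, up to the 8 largest folds, with their partners, and for the smallest p otherwise. Alternatives changed the probe set rule, filter, scaling, variance model, block and arrays. Promoters are RefSeq's, of GRCm38.p6; the sequence at Aars is not reported here.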

Additional observations from a re-analysis of the deposited data

Results flagged for a closer look

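Aars2, the mitochondrial alanyl enzyme, drew attention because its siLsd1 arrays ran opposite ways at the 2 times. Both siLsd1 arrays at 24 h lay above the siC mean (log2 change 0.13) and all 3 at 48 h lay below it (−0.22). Its intensities were 56.4 and 55.4 with siC and 63.4 and 58.8 with siLsd1 at 24 h, and 70.6, 54.5 and 64.6 with siC and 53.5, 52.4 and 56.5 with siLsd1 at 48 h. The opposite pattern was noticed from the arrays and was not itself tested by that count. In limma the difference between the times was −0.34 (SE 0.22, adjusted p 0.887).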

How the results depend on the processing

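The number of arrays limits the calls. No called change of a synthetase reversed under an alternative. With 1 array left out, cytosolic calls numbered 0 to 8 at 24 h, 3 to 14 at 48 h and 9 to 19 between the controls, and mitochondrial calls 0 to 3, 0 to 2 and 1 to 5. Over all genes the calls in these fits numbered 30 to 3478 at 24 h, 382 to 2473 at 48 h and 1482 to 5510 between the controls. The highest 24 h counts came without siLsd1 48 h replicate 3 (3478 of all genes), and 14 came without siLsd1 48 h replicate 1 (1854 of all genes). Synthetase calls for the difference between times stayed at 0. The cytosolic minus mitochondrial differences were 0.12 to 0.16 at 24 h, 0.27 to 0.47 at 48 h and −0.57 to −0.53 between the controls. Array weights gave 6 cytosolic and 4 mitochondrial calls at 24 h and 16 and 8 at 48 h. They gave 2 cytosolic calls for the difference (434 of all 13644 genes) and 6 mitochondrial calls between the controls (6192 of all genes). Fitting the compared arrays alone gave 7 and 3 at 24 h and 2 and 0 at 48 h. Between the controls it gave 4 mitochondrial calls (4717 of all genes). A change of at least 1.2-fold left 0 and 0 at 48 h and 8 cytosolic calls between the controls (1047 of all genes). No intensity trend left 5 cytosolic and 1 mitochondrial call at 48 h. The 48 h mitochondrial count was 1 with the mean of probe sets, all probe sets, the lowest 50% left out, quantile normalization, centring on the median and siLsd1 48 h replicates 1 and 2 averaged (an alternative chosen after seeing the data), and 0 with no filter. At 24 h it was 1 with the lowest 50% left out and with centring. Same-numbered samples did not deviate together (r from −0.19 to 0.054). With 2 arrays per group at 24 h the deviations mirror each other, and with so few arrays r cannot show whether the numbers pair the samples. The replicate block by number gave 9 cytosolic and 0 mitochondrial calls at 48 h, and the block by sample code 1 and 1 at 24 h and 11 and 0 at 48 h. No block could be fitted between the controls, since a number there is nested in a time. Over all genes, 736 were called at 24 h and 1728 at 48 h. These counts were 427 and 948 with the mean of probe sets, 3571 and 4922 with array weights, and 402 and 1006 with no trend. At 1.2-fold they were 85 and 109, and with the compared arrays alone 3183 and 250. They were 149 and 665 with the block by number and 1467 and 2251 with the block by sample code. Quantile normalization gave 754 and 2045, centring on the median 870 and 1799, and siLsd1 48 h replicates 1 and 2 averaged 652 and 1883. All probe sets gave 694 and 2117 (of 26208), the lowest 50% left out 834 and 1941 (of 9096), and no filter 607 and 1379 (of 18193).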
